A study of Homo sapiens with 6 samples.

Results

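RNA levels of serum amyloid A, lipocalin 2 and complement C3 were higher in an osimertinib-resistant lung adenocarcinoma line than in its control. So were those of the classical pathway proteases C1r and C1s, while those of complement factor B and pentraxin 3 were lower. The 9 genes described here are SAA1, SAA2, LCN2, C3, CFB, C1R, C1S, PTX3 and SERPINA3, out of 30330 genes in the tables. They were picked by symbol as acute-phase and complement genes, with earlier results of the same comparison known, so their differences between the groups are given as a description, with no test. All 9 had a row and passed the filter on low values, which kept 24560 genes.

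The resistant line, H1975/OSI, was derived from NCI-H1975, an established human line of lung adenocarcinoma, and was selected over 7 months at osimertinib steps of 0.03, 0.1, 0.3, 1 and 3 µM. Osimertinib inhibits the epidermal growth factor receptor kinase. It was set against NCI-H1975 labelled as control, so both groups share the genetic background of that line. There were 3 resistant libraries, titled Drug, and 3 control libraries, and RNA-seq reads were counted per gene. The labels do not say whether the drug was present at harvest, whether H1975/OSI is a clone, or whether replicates were separate cultures, so errors and p-values here reflect library-to-library spread alone, part or all of which could be technical.

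Depth was 15174126 to 16276518 reads per resistant library and 15813497 to 16588479 per control library. Resistant library 1 stood apart, with a chi-square per gene of 10.8 and 12.1 against resistant 2 and 3, beside 2.32 between resistant 2 and 3 and 2.43 to 3.66 among controls. The cell type was checked on 8 lung and epithelial markers, of which 1 rose and 4 fell, beside 20.4% and 21.1% of all tested genes. KRT7, an epithelial keratin, averaged 12803 ± 1139 in resistant and 13355 ± 528 in control libraries (SD, n = 3 each), and NKX2-1, a lung lineage transcription factor, averaged 461 ± 21.0 in resistant and 287 ± 28.1 in control libraries. EPCAM, an epithelial adhesion molecule, fell to 17.6 ± 2.03 in resistant libraries, against 379 ± 21.9 in control libraries (limma adjusted p = 9.6e-16). Unlike KRT7, the other keratins of the list fell. KRT8 averaged 16385 ± 726 in resistant and 23304 ± 690 in control libraries, and KRT18 7556 ± 151 and 10013 ± 56.7. KRT19 averaged 5874 ± 1717 in resistant and 12960 ± 420 in control libraries. NAPSA and SFTPB, at low levels, passed in neither direction. All values are normalized read counts, which are reads divided by the size factor of each library. A log2 fold change is resistant over control after adding 1 to each value, and is therefore too small for genes at low counts.

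Acute-phase proteins are plasma and mucosal proteins whose production climbs during infection or injury, mostly in the liver but also in airway epithelium. Interleukin 6 acting through STAT3, and interleukin 1 and TNF acting through NF-kB and C/EBP factors, are their best known inducers. Complement is a cascade of proteases: C1r and C1s start the classical pathway, factor B supplies the protease of the alternative pathway, and both routes meet at C3, whose cleavage tags surfaces and releases a small inflammatory peptide.

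SAA1 and SAA2 are close copies on chromosome 11, and their coding sequences show why reads can be split between them. The reference coding sequences on GRCh38, each of 366 bases without the stop codon, differ at 11 bases, which leaves 97.0% identity and an identical run of 186 bases. The last 150 bases, from 217 to 366, hold 10 of the differing bases, marked by capitals, and the other is base 43. They are printed 5′ to 3′ on the coding strand, as spliced from GENCODE 29 exons.
SAA1, chr11:18269320-18269852, plus strand: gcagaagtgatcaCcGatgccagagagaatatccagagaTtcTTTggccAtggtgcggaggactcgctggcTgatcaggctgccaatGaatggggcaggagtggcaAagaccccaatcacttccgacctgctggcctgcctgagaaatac
SAA2, chr11:18245380-18245923, minus strand: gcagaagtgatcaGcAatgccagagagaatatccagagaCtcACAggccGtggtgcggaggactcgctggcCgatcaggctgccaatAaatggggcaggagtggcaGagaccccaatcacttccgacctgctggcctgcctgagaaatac
Of all 100-base windows of the longest SAA1 transcript, 37.2% also occur in an SAA2 transcript, and of those of SAA2, 9.43% occur in SAA1. How the authors assigned reads that match both copies was not given in the sources used here, so the division between SAA1 and SAA2 is uncertain, and their sum is given beside it.

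SAA1, a lipid-associated protein that is the main inducible serum amyloid A, had 3926, 3818 and 3398 normalized read counts in resistant libraries 1 to 3, against 1211, 1301 and 1115 in control libraries 1 to 3. Every resistant library lay above every control library. The mean was 3714 ± 279 in resistant and 1209 ± 93.0 in control libraries (SD, n = 3 each), a log2 fold change of 1.62 ± 0.07 (SE).

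SAA2, the second inducible copy, had 1122, 1422 and 1468 in resistant libraries, against 331, 333 and 368 in control libraries. The groups did not overlap, and resistant 1, the highest for SAA1, was the lowest resistant library for SAA2. The log2 fold change was 1.95 ± 0.09 (SE) and was 2.07 without resistant 1. SAA1 made up 77.8%, 72.9% and 69.8% of the summed reads of the pair in resistant libraries, against 78.5%, 79.6% and 75.2% in control libraries. These shares overlap between the groups. The sum does not depend on how counted reads were divided, but it would lack any reads left uncounted for matching both copies. It averaged 5051 ± 188 in resistant and 1553 ± 75.8 in control libraries. With both copies entered as 1 row, its log2 fold change was 1.70 ± 0.06 (SE).

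LCN2 encodes lipocalin 2, which withholds iron from bacteria by binding their siderophores. It had 3562, 3491 and 3218 in resistant libraries, against 2324, 2320 and 2185 in control libraries. The groups did not overlap, and the libraries of each group lay close together. This gave a log2 fold change of 0.59 ± 0.06 (SE). It was 0.45 with each library centred on its median and 0.67 with quantile normalization.

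PTX3 encodes the long pentraxin 3, a soluble pattern recognition protein made at sites of inflammation, and it went the other way. It had 1315, 1038 and 1124 in resistant libraries, against 1474, 1356 and 1512 in control libraries. The highest resistant library, number 1, was close to the lowest control library, number 2, without reaching it. On the log2 scale the fold change was -0.33 ± 0.08 (SE), and -0.42 without resistant 1.

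SERPINA3 encodes alpha-1-antichymotrypsin, an inhibitor of cathepsin G. It was scarce in both groups, with 20, 28 and 43 reads in resistant libraries, against 3, 3 and 0 in control libraries. All resistant libraries were above all controls, but the control side rests on 6 reads in all. The ratio of reads, adjusted for size factors, was 14.7, with an exact 95% interval from counting of 6.48 to 41.0 that covers counting error only. The fitted log2 fold change of 3.51 ± 0.53 (SE) depends on the pseudocount at this depth, and was 5.94 with a pseudocount of 0.01.

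C1R and C1S encode the protease pair of the C1 complex, in which C1r activates C1s. C1R had 6607, 5211 and 4964 in resistant libraries, against 3135, 3094 and 2859 in control libraries. C1S had 6005, 5062 and 4888 in resistant libraries, against 2588, 2400 and 2401 in control libraries. For both genes the groups did not overlap, and resistant 1 was above the other resistant libraries. The log2 fold change of C1R was 0.87 ± 0.09 (SE), and 0.75 without resistant 1. That of C1S was 1.11 ± 0.07 (SE), and 1.01 without resistant 1.

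CFB encodes factor B. It had 1272, 1482 and 1553 in resistant libraries, against 1869, 1889 and 1863 in control libraries. Resistant libraries were all lower, and they spread more than the control libraries, which nearly coincided. CFB had a log2 fold change of -0.39 ± 0.07 (SE), or -0.30 without resistant 1.

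C3, the protein on which all complement routes converge, was the most abundant of the 9. It had 73424, 68764 and 69706 in resistant libraries, against 54651, 54816 and 46101 in control libraries. Its reads made up 0.463 ± 0.00423% of each library in the resistant group and 0.319 ± 0.0270% in the control group (SD, n = 3 each). The groups did not overlap, and control 3 was the lowest library. C3 had a log2 fold change of 0.45 ± 0.06 (SE), which was 0.32 with each library centred on its median and 0.70 with quantile normalization, so its size, but not its direction, depended on the scaling.

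**Figure D1:**
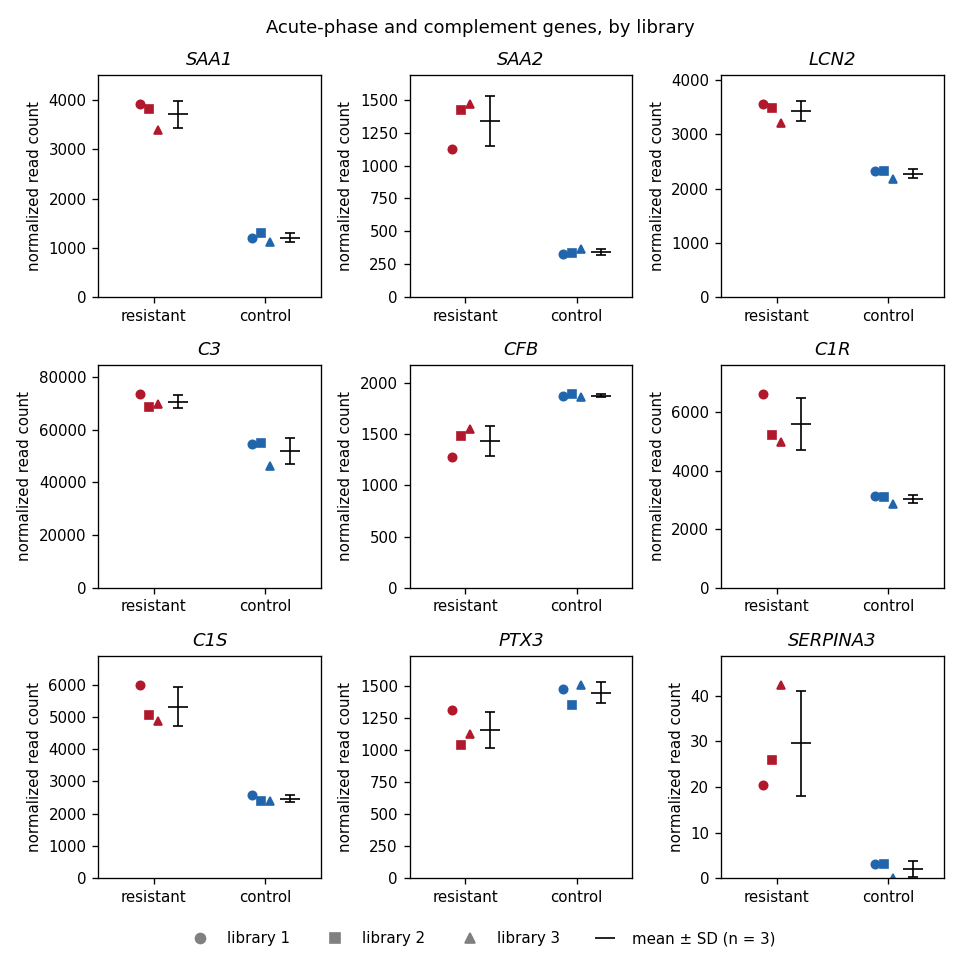
Normalized read counts of the 9 genes in each library, one panel per gene with its own vertical axis from 0, resistant libraries on the left and control libraries on the right, and the mean ± SD (n = 3) beside the points. In 7 panels the resistant points lie above the control points, and in the panels of CFB and PTX3 they lie below.

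Of the 9 genes, 7 were higher and 2 lower with groups that did not overlap, and the same genes passed the threshold of limma at an adjusted p of 0.05; PTX3 missed it with limma without trend, and SERPINA3 with a pseudocount of 0.01. Among all tested genes, 50.1% did not overlap, 24.7% higher and 25.4% lower, and 41.5% passed the threshold, 20.4% higher and 21.1% lower. Nothing is read from the count of the 9, because they were chosen with this comparison known. The fold changes themselves ranged from -0.39 to 3.51, and the direction of each of the 9 was the same under every scaling, filter, pseudocount, test and left-out library that was run.

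**Figure D2:**
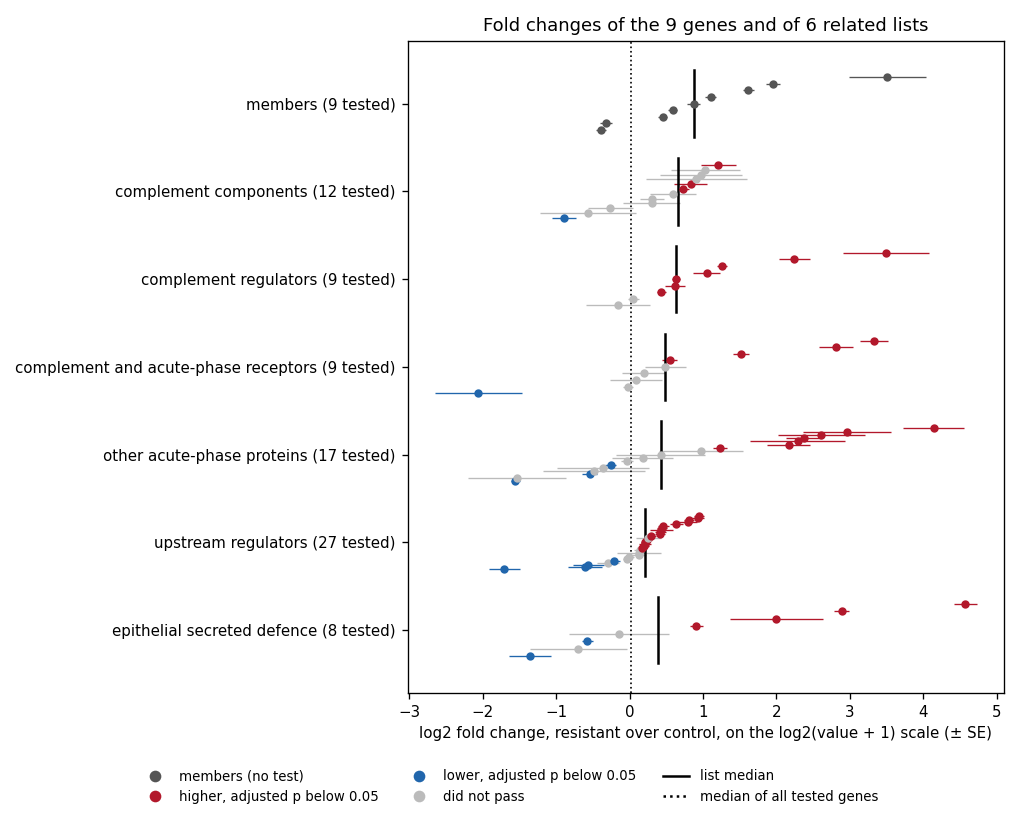
Log2 fold change of resistant over control with its SE (horizontal axis) for every tested gene of the 9 and of 6 related lists (rows). Short vertical lines mark the median of each list, which was 0.87 for the 9 genes and between 0.22 and 0.66 for the lists, beside 0.01 over all tested genes (dotted line).

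Levels of different genes were compared per kilobase of exon, from the gene lengths in the tables. C3 led in both groups, at 8481 ± 296 in resistant and 6227 ± 599 in control libraries (normalized read counts per kilobase, SD, n = 3 each). Among 16378 protein-coding genes it ranked 36 in resistant and 52 in control libraries by this measure. SAA1 ranked 76 in resistant and 347 in control libraries, LCN2 206 and 370, and SAA2 968 and 4462.

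In resistant libraries the order per kilobase was C3, SAA1, LCN2, C1R, C1S, SAA2, PTX3, CFB and SERPINA3. The ranges of C1R and C1S overlapped, as did those of SAA2 and PTX3, and the other neighbours in the order did not. In control libraries the order was C3, SAA1, LCN2, PTX3, C1R, C1S, CFB, SAA2 and SERPINA3, with overlapping ranges for SAA1 and LCN2 and for C1S and CFB. SAA2 stood sixth in the first order and next to last in the control order. With the longest transcript as the length, the leading gene and the last gene stayed, while LCN2 passed above SAA1 and PTX3 stood behind C1R and C1S in control libraries, and C1S passed above C1R in resistant libraries.

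**Figure D3:**
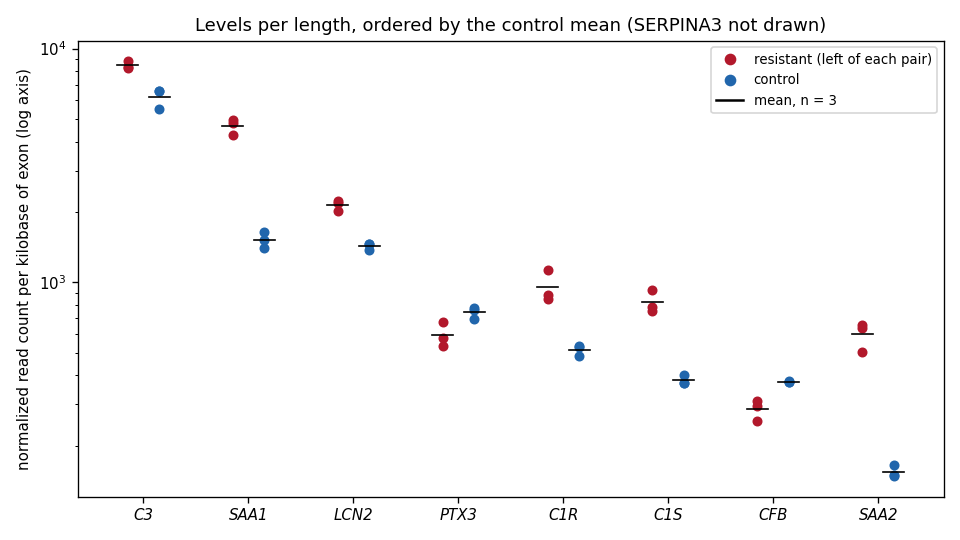
Normalized read counts per kilobase of exon (log axis) for 8 of the 9 genes, ordered by the control mean, with resistant libraries to the left of control libraries for each gene and lines at the means (n = 3). SAA2 in resistant libraries, at 601 ± 84.4, lies above CFB, at 287 ± 29.3, whereas in control libraries SAA2, at 154 ± 9.49, lies below CFB, at 375 ± 2.76.

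Ratios taken within a library do not depend on its size factor. The ratio of C1R to C1S per kilobase was 1.21, 1.13 and 1.12 in resistant libraries, against 1.33, 1.42 and 1.31 in control libraries. The ratio thus lay between 1.12 and 1.42 over the 6 libraries and was lower in each resistant library than in any control. Its size, but not this order, depends on the gene lengths used. With the longest transcript as the length, C1R and C1S averaged 1598 and 1729 per kilobase in resistant libraries, and 865 and 801 in control libraries. The ratio of C3 to CFB per kilobase was 34.6, 27.8 and 26.9 in resistant libraries, against 17.5, 17.4 and 14.8 in control libraries. C3 and its alternative pathway partner moved apart, with no overlap between the groups, and resistant 1 was the most extreme. With 3 libraries against 3, an exact permutation test cannot go below p = 0.1, and none was run on these ratios.

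**Figure D4:**
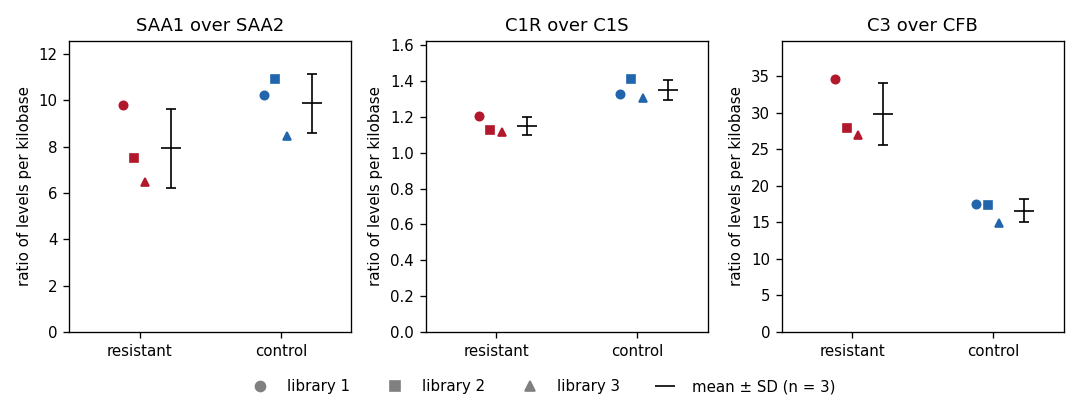
Ratio of levels per kilobase within each library for SAA1 over SAA2, C1R over C1S and C3 over CFB, resistant libraries left and control libraries right, with mean ± SD (n = 3). Groups overlap for SAA1 over SAA2, at 7.93 ± 1.70 in resistant and 9.89 ± 1.27 in control libraries, and do not overlap for the other ratios.

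Promoters of 5 of the 9 genes were matched by symbol in the RefSeq table of GRCh38.p14: LCN2, C1R, SERPINA3, CFB and PTX3. SAA1, SAA2, C3 and C1S had no entry there and are named only. The windows are thus those of every member with an entry, whatever its direction. LCN2, C1R and SERPINA3 were higher and CFB and PTX3 lower in the resistant line, and their motif content can be read side by side. Each runs from 250 bases before to 50 bases after the start site, 5′ to 3′ on the strand of the gene. Capitals mark letter matches to the NF-kB consensus, to the C/EBP core TTNNGNAA or to the STAT core TTCNNNGAA, on either strand.
LCN2, chr9:128149203-128149502, plus strand: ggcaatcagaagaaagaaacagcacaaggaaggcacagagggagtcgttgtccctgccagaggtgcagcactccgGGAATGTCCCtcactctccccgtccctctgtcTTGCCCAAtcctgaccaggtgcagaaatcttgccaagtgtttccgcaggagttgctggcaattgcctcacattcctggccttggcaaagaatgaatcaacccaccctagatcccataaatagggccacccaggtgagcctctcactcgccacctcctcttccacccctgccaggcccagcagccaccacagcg
C1R, chr12:7092396-7092695, minus strand: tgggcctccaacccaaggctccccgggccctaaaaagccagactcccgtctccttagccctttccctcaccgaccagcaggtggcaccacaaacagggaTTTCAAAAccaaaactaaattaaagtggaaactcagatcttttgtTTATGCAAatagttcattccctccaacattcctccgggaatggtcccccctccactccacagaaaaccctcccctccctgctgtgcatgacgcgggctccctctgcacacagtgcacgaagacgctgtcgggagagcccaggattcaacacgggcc
SERPINA3, chr14:94612141-94612440, plus strand: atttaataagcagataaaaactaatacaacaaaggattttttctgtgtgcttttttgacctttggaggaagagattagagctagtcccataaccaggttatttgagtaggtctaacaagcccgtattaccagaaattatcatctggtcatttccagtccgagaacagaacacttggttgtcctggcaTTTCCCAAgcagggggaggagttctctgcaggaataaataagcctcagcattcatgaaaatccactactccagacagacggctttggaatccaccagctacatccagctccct
CFB, chr6:31945845-31946144, plus strand: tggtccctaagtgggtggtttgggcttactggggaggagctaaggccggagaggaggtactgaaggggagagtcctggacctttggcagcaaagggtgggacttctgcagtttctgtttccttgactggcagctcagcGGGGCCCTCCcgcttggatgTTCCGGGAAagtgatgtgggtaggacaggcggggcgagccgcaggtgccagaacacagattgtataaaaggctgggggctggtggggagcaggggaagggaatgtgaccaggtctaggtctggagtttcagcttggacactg
PTX3, chr3:157436600-157436899, plus strand: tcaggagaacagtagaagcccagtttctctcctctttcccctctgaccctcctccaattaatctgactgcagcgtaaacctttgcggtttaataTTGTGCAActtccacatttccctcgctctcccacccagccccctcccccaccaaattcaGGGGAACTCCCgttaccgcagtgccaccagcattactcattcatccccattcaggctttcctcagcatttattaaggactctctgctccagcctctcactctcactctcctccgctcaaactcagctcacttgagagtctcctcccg
An NF-kB match lay in the LCN2 window, from -175 to -166 relative to the start site, in the CFB window, from -112 to -103, and in the PTX3 window, where overlapping matches ran from -97 to -87. C/EBP core matches lay in the LCN2, C1R, SERPINA3 and PTX3 windows, and the STAT core matched once, in CFB, from -92 to -84. Of 35116 RefSeq promoter windows of the same 300 bases, 11.3% held an NF-kB match, 36.8% a C/EBP match and 7.66% a STAT match. NF-kB matches were thus present in a window of a gene that was higher and in windows of the genes that were lower. A match describes letters and is not evidence of binding.

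**Figure D5:**
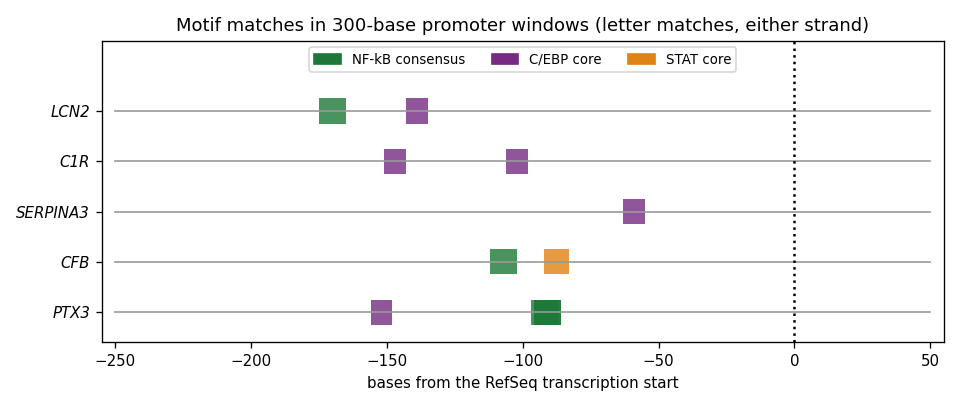
Positions of motif matches (coloured bars) in promoter windows of 5 genes, as bases from the RefSeq transcription start, with the genes that were higher in the resistant line (LCN2, C1R, SERPINA3) above those that were lower (CFB, PTX3). NF-kB matches fall in the LCN2, CFB and PTX3 windows, and a STAT match falls in the CFB window.

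Several of the 9 lie beside relatives, on GRCh38. SAA1 (ENSG00000173432, chromosome 11, 18266174 to 18269977, plus strand) and SAA2 (ENSG00000134339, 18239223 to 18248643, minus strand) are 17530 bases apart. SAA2 also overlaps SAA2-SAA4, a readthrough gene with 13.2 ± 3.01 in resistant and 8.02 ± 4.32 in control libraries. HPS5, on the far side of SAA1, had a log2 fold change of 0.18 ± 0.08 (SE, limma adjusted p = 0.0765), short of the threshold, which it passed without resistant 1 (0.21, adjusted p = 0.0249) and with quantile normalization (0.23, adjusted p = 0.0212).

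C1S (ENSG00000182326, chromosome 12, 6988259 to 7071032, plus strand) and C1R (ENSG00000159403, 7080199 to 7092607, minus strand) lie 9166 bases apart. C1RL, a C1r-like protease gene that overlaps the C1R span on the same strand by 3021 bases, rose to 1523 ± 73.1 in resistant libraries, against 916 ± 34.0 in control libraries (log2 fold change 0.73 ± 0.07 SE, limma adjusted p = 8.06e-09). LPCAT3, which overlaps the C1S span on the other strand, had a log2 fold change of -0.33 ± 0.14 SE that did not pass the test (adjusted p = 0.0586, from 0.01 to 0.0455 under the 6 settings in which it passed). EMG1 overlaps the C1S span on the same strand by 9170 bases, and averaged 304 in resistant and 565 in control libraries. Strand handling was not given in the sources used here, so reads of overlapping genes may be shared.

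CFB (ENSG00000243649, chromosome 6, 31945650 to 31952084, plus strand) abuts C2, with an overlap of 23 bases. C2 supplies the classical pathway counterpart of factor B, and it rose to 51.8 ± 5.49, against 28.6 ± 1.58 in control libraries (log2 fold change 0.83 ± 0.23 SE, limma adjusted p = 0.00471). The adjacent genes CFB and C2 therefore differed in opposite directions. NELFE, on the other side of CFB, did not pass (-0.14 ± 0.08 SE, adjusted p = 0.187), but did with median centring (-0.27, adjusted p = 0.00768) and without resistant 1 (-0.18, adjusted p = 0.0495).

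C3 (ENSG00000125730, chromosome 19, 6677704 to 6730562, minus strand) lies between TNFSF14, a TNF family ligand gene that rose (log2 fold change 1.36 ± 0.10 SE, limma adjusted p = 1.23e-10), and GPR108, which overlaps it by 649 bases and rose by a log2 fold change of 0.33 ± 0.07 (SE, adjusted p = 0.000256). LCN2 (ENSG00000148346, chromosome 9, 128149071 to 128153455, plus strand) is flanked by PTGES2, which fell (-0.74 ± 0.07 SE, adjusted p = 8.6e-09), and by BBLN, whose log2 fold change was near 0.

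PTX3 (ENSG00000163661, chromosome 3, 157436789 to 157443628, plus strand) lies within the span of VEPH1 on the opposite strand. VEPH1 rose to 17.2 ± 3.78 in resistant libraries, against 0.342 ± 0.593 in control libraries (limma adjusted p = 4.05e-06), so the nested gene and its host differed in opposite directions. SLC66A1L, the nearest tested gene on the other side, also rose (log2 fold change 1.27 ± 0.25 SE, adjusted p = 0.000246). SERPINA3 (ENSG00000196136, chromosome 14, 94612377 to 94624055, plus strand) shares its serpin cluster with SERPINA5, the protein C inhibitor, which rose to 217 ± 7.46, against 49.6 ± 8.38 in control libraries (log2 fold change 2.12 ± 0.16 SE, adjusted p = 1.38e-10). DICER1, beyond the cluster, did not pass (-0.10 ± 0.07 SE, adjusted p = 0.31), but did with median centring (-0.23, adjusted p = 0.0167).

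By distance over the 6 libraries after centring on the control mean, the genes most like SAA1 among 11553 protein-coding candidates were MEGF6, SMARCD3 and ISYNA1, at distances of 0.16, 0.18 and 0.18 on the log2 scale. Those most like C3 were MLLT1, PKD1 and BICRAL, at 0.06, 0.07 and 0.08, and those most like LCN2 were TMEM9, MAFK and ALG9, at 0.08, 0.09 and 0.09. SAA2 was not among the 3 nearest to SAA1 by this distance, which also counts the size of the log2 fold change (1.95 for SAA2 and 1.62 for SAA1). These lists describe likeness over 6 libraries only.

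The 6 lists of related genes that follow were written from their known roles, but with earlier results of these data known. Their counts and p-values are therefore not independent support. Genes without a row in the tables were not analysed here. All p-values below are adjusted over all 24560 tested genes with limma and Benjamini-Hochberg. Among other complement components, 3 of 12 tested genes rose and 1 fell, with a median log2 fold change of 0.66. Over all tested genes 20.4% rose and 21.1% fell. The genes that rose were C1RL, C2 and C4B. C4A and C4B, near-identical copies of the gene for C4, which C1s cleaves, share 87.8% of the 100-base windows of the longest C4A transcript, so their separate counts are uncertain. C4A had 766, 359 and 386 in resistant libraries, against 358, 210 and 164 in control libraries, and did not pass (log2 fold change 1.03 ± 0.47 SE, adjusted p = 0.165). C4B had 398, 597 and 366 in resistant libraries, against 143, 227 and 217 in control libraries (1.21 ± 0.24 SE, adjusted p = 0.00529). Their sum averaged 957 ± 206 in resistant and 439 ± 60.2 in control libraries, and as 1 row it rose by a log2 fold change of 1.11 ± 0.15 (SE, adjusted p = 0.000236). C4A and the sum were singled out after values were seen.

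CFD, the protease factor D that cleaves factor B, was the component that fell. It had 151, 102 and 85.8 in resistant libraries, against 198, 209 and 204 in control libraries. Resistant 1 was the highest of the resistant libraries, and none reached a control library. Factor D thus fell by a log2 fold change of -0.89 ± 0.16 (SE, limma adjusted p = 0.000106). CFP, which encodes properdin, the stabilizer of the alternative pathway convertase, was singled out after its value was seen. Its log2 fold change was 0.60 ± 0.31 (SE, adjusted p = 0.138), with groups that did not overlap, and it did not pass.

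Complement regulators, which hold the cascade in check on host cells and in plasma, rose in 7 of 9 tested genes and fell in 0 (median log2 fold change 0.63). That is 77.8% of the list, beside 20.4% of all tested genes. Of the 7, C4BPB rests on few reads, with 33 over the resistant libraries and 0 over the control libraries. CLU, which encodes clusterin, an inhibitor of the membrane attack complex, rose to 2195 ± 131, against 915 ± 50.3 in control libraries (log2 fold change 1.26 ± 0.07 SE, adjusted p = 8.11e-13). CFI, the protease factor I that inactivates C3b, rose to 143 ± 21.1, against 30.0 ± 9.26 (2.24 ± 0.21 SE, adjusted p = 6.24e-09). CD46, a membrane cofactor of factor I, and CD59, which blocks the attack complex on the cell surface, rose by 0.63 ± 0.06 and 0.43 ± 0.06 (SE). SERPING1, the C1 inhibitor that blocks C1r and C1s, was singled out for that role after its value was seen, and it rose to 147 ± 36.2, against 69.1 ± 6.38 (1.05 ± 0.18 SE, adjusted p = 3.98e-05). CD55, which speeds the decay of the C3 convertases, had a log2 fold change of 0.05 ± 0.08 (SE, adjusted p = 0.652) and did not pass.

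Of 9 tested receptors for complement and acute-phase proteins, 4 rose (44.4%) and 1 fell (11.1%), beside 20.4% and 21.1% of all tested genes (median log2 fold change 0.49). C5AR1, a receptor of the C5a peptide, had 246, 200 and 211 in resistant libraries, against 21.6, 16.6 and 25.1 in control libraries. The lowest resistant library was far above the highest control library (3.33 ± 0.19 SE, limma adjusted p = 1.33e-12). TLR4, a sensor of bacterial lipopolysaccharide, rose by 2.81 ± 0.23 (SE), TLR2 by 0.54 ± 0.10, and ITGB2, the beta chain of the complement receptor integrins, by 1.51 ± 0.11. C3AR1, the receptor of the C3a peptide, was the member that fell, with 1.93 ± 1.97 in resistant and 9.11 ± 1.34 in control libraries. At these few reads its ratio was 0.215, with an exact 95% counting interval of 0.072 to 0.531, and its call (adjusted p = 0.00706) ended with a pseudocount of 0.01 and with limma without trend.

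Among other acute-phase proteins, 7 of 17 tested genes rose (41.2%) and 3 fell (17.6%), beside 20.4% and 21.1% of all tested genes (median log2 fold change 0.42). The list also holds TF (transferrin), ALB and AHSG, whose proteins fall rather than climb in an acute-phase response. Its counts and median therefore mix both kinds, and TF is among the genes that rose. Of the 7, HP, A2M and TF rest on few reads. They had 21, 21 and 33 reads over the resistant libraries and 2, 0 and 3 over the control libraries. SAA4, the constitutive serum amyloid A gene beside SAA2, had 108, 92.3 and 108 in resistant libraries, against 22.6, 23.9 and 12.5 in control libraries (2.37 ± 0.24 SE, limma adjusted p = 2.32e-08). The readthrough SAA2-SAA4 overlaps it. CP, the copper-carrying ferroxidase ceruloplasmin, rose by 1.23 ± 0.10 (SE) and HPX, the heme scavenger hemopexin, by 2.16 ± 0.29. The CP span overlaps HPS3 on the other strand by 11323 bases, so reads of the pair may be shared. HPS3 averaged 1969 in resistant and 2436 in control libraries. LBP, which delivers lipopolysaccharide to CD14, had 61.4 ± 11.7 in resistant and 3.04 ± 2.74 in control libraries, a ratio of reads of 20.2 with an exact 95% counting interval of 10.4 to 44.8.

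SERPINA1, which encodes alpha-1-antitrypsin and lies in the same cluster as SERPINA3, fell. It had 1193, 1139 and 1169 in resistant libraries, against 3480, 3470 and 3334 in control libraries. Libraries of each group nearly coincided, and the log2 fold change was -1.55 ± 0.06 (SE, limma adjusted p = 2.52e-15). CD14, the lipopolysaccharide coreceptor, fell by 0.55 on the log2 scale (adjusted p = 0.000171). FTH1, the ferritin heavy chain, was called lower (-0.26 ± 0.07 SE, adjusted p = 0.00706) with overlapping groups, at 43677 ± 5560 in resistant and 52080 ± 2863 in control libraries, and the call was lost without resistant 2 (-0.20) or control 2 (-0.22), with quantile normalization (-0.07), without the filter, with limma-voom and with limma without trend.

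Of 27 tested upstream regulators, 16 rose (59.3%) and 4 fell (14.8%), beside 20.4% and 21.1% of all tested genes (median log2 fold change 0.22). With each library centred on its median 9 rose and 6 fell, and with limma without trend 9 rose and 1 fell. IL6, the main inducer of liver acute-phase genes, had 5482, 5799 and 5967 in resistant libraries, against 2805, 2872 and 3295 in control libraries. Resistant libraries were all higher (0.95 ± 0.07 SE, limma adjusted p = 5.77e-11). LIF, a cytokine of the same family, rose by 0.94 ± 0.08 (SE), IL1RAP, the shared interleukin 1 receptor chain, by 0.64 ± 0.09, and BCL3, a nuclear IkB protein that binds NF-kB subunits, by 0.81 ± 0.07. Singled out after values were seen, STAT3 rose by 0.29 ± 0.06 (SE), CEBPB by 0.41 ± 0.07, CEBPD by 0.44 ± 0.07 and SOCS3, a feedback inhibitor induced by STAT3, by 0.79 ± 0.12. The STAT3 call was lost with median centring (0.16) and with limma without trend.

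The interleukin 1 ligands and TNF were the regulators that fell, with IL1R1. IL1B had 30.6, 55.4 and 38.5 in resistant libraries, against 159, 116 and 128 in control libraries (-1.70 ± 0.21 SE, limma adjusted p = 3.25e-07). IL1A, IL1R1 and TNF were called lower by smaller amounts (-0.56, -0.21 and -0.61), and each of these calls was lost in several settings. The IL1A call was lost without resistant 2 (-0.43), control 1 (-0.46) or control 3 (-0.44). The TNF call was lost without resistant 1 (-0.30), control 1 (-0.59) or control 2 (-0.50), and the IL1R1 call without resistant 2 (-0.17), resistant 3 (-0.18), control 1 (-0.22) or control 2 (-0.18). With limma without trend the calls of IL1A, IL1R1 and TNF were all lost, as were those of IL1A and TNF with a pseudocount of 0.01, of TNF with one of 0.1 and with DESeq2, and of IL1R1 with quantile normalization (-0.14).

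Of 8 tested secreted defence genes of epithelia, 4 rose and 2 fell, and over all tested genes 20.4% rose and 21.1% fell (median log2 fold change of the list 0.38). LTF, which encodes lactoferrin, an iron-binding protein that acts beside lipocalin 2 in mucosal secretions, had 582, 499 and 457 in resistant libraries, against 21.6, 19.7 and 20.2 in control libraries. The separation gave a log2 fold change of 4.57 ± 0.16 (SE, limma adjusted p = 1.01e-16). WFDC2 rose by 2.89 ± 0.10 (SE) and MUC1, a membrane mucin, by 0.91 ± 0.09. SLPI and PI3, inhibitors of neutrophil elastase, fell by 0.58 and 1.36 on the log2 scale. PIGR, the receptor that carries polymeric immunoglobulin across epithelia, had 7.96 ± 4.93 in resistant and 1.31 ± 1.47 in control libraries, a log2 fold change of 1.998 ± 0.64 (SE, adjusted p = 0.0139). Its call was lost without resistant 2 (1.59) or control 2 (1.50), with a pseudocount of 0.01 (4.45) and with limma without trend.

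Markers of other cells that make these proteins were read beside the results. In bulk RNA, fewer cells of a type and less RNA per cell cannot be told apart. Of 8 hepatocyte markers, 5 had a row, and their summed level was 183 to 223 in resistant and 143 to 174 in control libraries, nearly all of it CYP2E1, at 193 ± 20.8 in resistant and 151 ± 16.4 in control libraries (limma adjusted p = 0.0369, lost in 8 of the alternatives). ALB, the albumin gene, averaged 4.92 ± 2.07 in resistant libraries, against 1.99 ± 0.927 in control libraries, and APOA1 and APOC3 had 3 or fewer reads in every library. Of 8 leukocyte markers, 4 had a row, with a sum of 63.7 to 132 in resistant and 82.9 to 111 in control libraries. Among them LYZ had 3 or fewer reads in every library, and CD68 averaged 1.70 ± 2.94 in resistant and 3.08 ± 1.83 in control libraries. Most of the sum came from CSF1R, a macrophage growth factor receptor that fell to 44.1 ± 7.94 in resistant libraries, against 92.4 ± 9.13 in control libraries (limma adjusted p = 9.26e-05), and from ELANE, neutrophil elastase, which was called higher at 40.6 ± 26.6 in resistant and 4.81 ± 4.63 in control libraries (limma adjusted p = 0.0239), a call that was lost without control 2 (adjusted p = 0.0546) and in 4 other settings. Of 4 endothelial markers, the sum was 557 to 759 in resistant and 290 to 332 in control libraries, mostly CDH5, which rose, while PECAM1 fell. The mitochondrial share of reads was 5.53 ± 0.178% in resistant and 6.88 ± 0.440% in control libraries. The part of composition in the differences described here was not tested.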

How the data were processed

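RNA-seq libraries were made from total RNA of 3 resistant and 3 control samples. The authors deposited 1 table per library with 30330 Ensembl genes and a normalized signal. Submitters' processing notes name GRCh38 as build. Aligner, counter and normalization method: not given in the sources used here. In every library 100% of deposited signal values were whole multiples of 1 step within 0.001 reads, so whole reads were recovered. The authors' gene length column, a value of another kind, gave exon lengths in bases, per the file headers, and equalled the union of GENCODE 29 exons for 30325 genes.

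Values were fitted as log2(value + 1) with limma-trend (limma 3.58.1, R 4.3.3, robust), group as the sole term, on the 24560 genes that reached 1 in 3 libraries or more, two-sided, with Benjamini-Hochberg adjustment over all of them. As the values were normalized, this test was used and count tests were alternatives. Count tests on recovered reads used edgeR 4.0.16 and DESeq2 1.42.0, with edgeR calling 5002 genes higher and 5157 lower. The fit was also run on simulated counts with the same dispersion for every gene and with changes only in well-covered genes. That run does not bear on genes with few reads or on the spread of resistant 1. Members and lists were chosen with earlier results of these data known. Named genes were the 9 members, up to 4 genes by adjusted p per list and direction, every called gene of a list direction with 3 or fewer, the nearest tested neighbours and the 3 genes nearest in pattern to SAA1, C3 and LCN2; other genes named were chosen after their values were seen. Symbols were matched for 30078 genes. Intervals cover counting error only.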

Additional observations from a re-analysis of the deposited data

How the results depend on the processing

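Median centring moved the median log2 fold change of all genes to -0.12, against 0.01 as fitted, and the calls to 3713 higher and 6666 lower, against 5010 and 5194. DESeq2 called 4274 and 4611, limma without trend 3685 and 3888, and leaving out a library 4322 to 4938 higher and 4463 to 5319 lower. The 9 genes kept their direction under every setting. Of 153 alternative values of their fold changes, 144 moved by less than 1 SD between replicates. Median centring moved SAA1 (1.48), CFB (-0.52) and C1S (0.97) by more. SERPINA3 moved by more with pseudocounts of 0.1 and 0.01, and the latter gave 5.94 against 3.51 as fitted. LCN2 and C3 moved by more with median centring and with quantile normalization. Of 9 genes, the count lower was 1 with limma without trend, which lost PTX3, and 2 with each library left out; the count higher was 6 with a pseudocount of 0.01, which lost SERPINA3. Receptors counted 0 lower with limma without trend and with a pseudocount of 0.01. Upstream regulators counted 9 higher with limma without trend and with median centring, 6 lower with median centring, 1 lower with limma without trend, 2 lower with a pseudocount of 0.01, and 1 to 4 lower with a library left out. BBLN turned positive with DESeq2 (0.0027), edgeR (0.0039), limma-voom (0.0012) and quantile normalization (0.065), and ranged from -0.040 to 0.073 with a library left out. The cause was not tested.

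Replicate numbers did not pair the libraries: the deviations of same-numbered libraries correlated at -0.0015, 0.00011 and 0.0067. With the replicate block, 5003 genes were higher and 5172 lower, and C4A passed the threshold (1.03, adjusted p = 5.42e-08), against an adjusted p of 0.165 without it. Depth limits SERPINA3, C3AR1, PIGR, LBP, HP, A2M, TF and C4BPB, which had few reads in a group.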

Other observations

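ELANE, which encodes neutrophil elastase and lies next to CFD on chromosome 19, had 71.4, 25.8 and 24.7 in resistant libraries, against 9.24, 5.20 and 0 in control libraries. All resistant libraries were higher, while CFD was lower in each of them. The ELANE call (log2 fold change 3.21 ± 0.89 SE, limma adjusted p = 0.0239) was lost without control 2 (adjusted p = 0.0546), with pseudocounts of 0.1 (adjusted p = 0.148) and 0.01 (adjusted p = 0.213), without the filter (adjusted p = 0.0731) and with limma without trend (adjusted p = 0.0687). ELANE was singled out after its values were seen.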
